A study of Homo sapiens with 8 samples.

Results

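Protein kinase C is a family of serine/threonine kinases, and 8 of its isoforms were followed here in CAL-27, an established human cell line labelled as a squamous cell carcinoma of head and neck origin, after exposure to compounds that the study describes as inhibitors of these kinases. The isoforms were PRKCA, PRKCB, PRKCD, PRKCE, PRKCH, PRKCI, PRKCQ and PRKCZ, and every probe that the array annotation names for one of them was taken, with PRKCB also accepted under its older name PRKCB1. This gave 14 probes for 8 of the 17529 gene symbols on the array. A pair of probes was present for each of 6 isoforms, and 1 probe each for PRKCD and PRKCQ. The 8 single-colour arrays comprised cells given a compound that the labels call Go, at a dose the labels do not give (n = 2), cells given enzastaurin at 10 µM (n = 3), and control cells (n = 3). All groups, controls included, were serum-starved for 24 h, and the exposure lasted 24 h. Because the dose of Go is not stated, the compounds are not known to have been compared at matched doses. CAL-27 is a single line, and the labels do not say whether the arrays of a group came from separate cultures, so the p-values rest on the spread among these arrays alone, which may be technical.

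Protein kinase C isoforms fall into 3 classes by the signals that switch them on. The conventional isoforms (PRKCA and PRKCB among them) respond to calcium together with diacylglycerol, the lipid that phospholipase C releases at the membrane; the calcium-independent isoforms (PRKCD, PRKCE, PRKCH and PRKCQ) respond to diacylglycerol alone; and the atypical isoforms (PRKCI and PRKCZ) respond to neither and are held in place by partner proteins of the cell polarity machinery. In stratified squamous epithelium, PRKCH and PRKCD are known for their parts in keratinocyte differentiation. Enzastaurin was developed as an inhibitor of the kinase encoded by PRKCB. The compounds act on kinase proteins, whereas the arrays measured transcripts, so no value below is a measure of kinase activity.

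The arrays were similar in brightness and not identical. Each array had 52.1% to 57.3% of its 41000 probes above background, and the 75th percentile of the deposited signal was 316 to 384 on the Go arrays, 378 to 457 on the enzastaurin arrays and 251 to 342 on the control arrays. All 12 keratinocyte markers examined, among them KRT5, KRT14 and TP63, were above background on all 8 arrays, whereas the leukocyte markers PTPRC and LYZ, the endothelial markers PECAM1 and KDR and the fibroblast marker PDGFRB were above background on none. Of the 15 markers of these other cell types, 4 (CD3E, CD14, VWF and COL1A1) were above background on all 8 arrays. By spot position, Go 1 shared a first slide with the 3 controls, and Go 2 shared a second slide with the 3 enzastaurin arrays. Along the first principal component (81.4% of the variance) control 1, 2 and 3 and Go 1 lay at -85.5, -68.7, -34.1 and 4.1. Go 2 and enzastaurin 1, 2 and 3 lay at 40.4, 45.5, 48.3 and 50.1. Enzastaurin and control arrays therefore shared no slide, and slide and treatment can be separated in that comparison only through the 2 Go arrays. Spot positions also gave the slot along the slide: control 1, 2 and 3 and Go 1 lay in slots 1, 2, 3 and 4 of the first slide, and Go 2 and enzastaurin 1, 2 and 3 in slots 1, 2, 3 and 4 of the second. No slot of a slide held more than 1 array, so within a slide the slot cannot be told apart from the array. On both slides the value on the first component rose with the slot, and the cause was not tested.

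The isoforms differed in whether they could be seen at all. A probe was counted as above background where the scanner's signal-to-noise score exceeded 3, a level that at most 0.654% of 153 negative control spots passed on any array. By this rule 4 isoforms, PRKCD, PRKCH, PRKCI and PRKCZ, had a probe above background on all 8 arrays. PRKCA was above background on 7 arrays and PRKCE on 5, while PRKCB and PRKCQ were above background on none. The same 4 isoforms were found with a score above 2 or above 5. With the 99th percentile of the negative controls of each array as the limit, 6 isoforms passed on all 8 arrays, the additions being PRKCA and PRKCE, and without Go 1 the count was 5, the addition being PRKCA. None of the 14 probes was saturated. Levels are compared below within a probe and never between probes, since probes differ in how brightly they report the same amount of RNA.

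**Figure D1:**
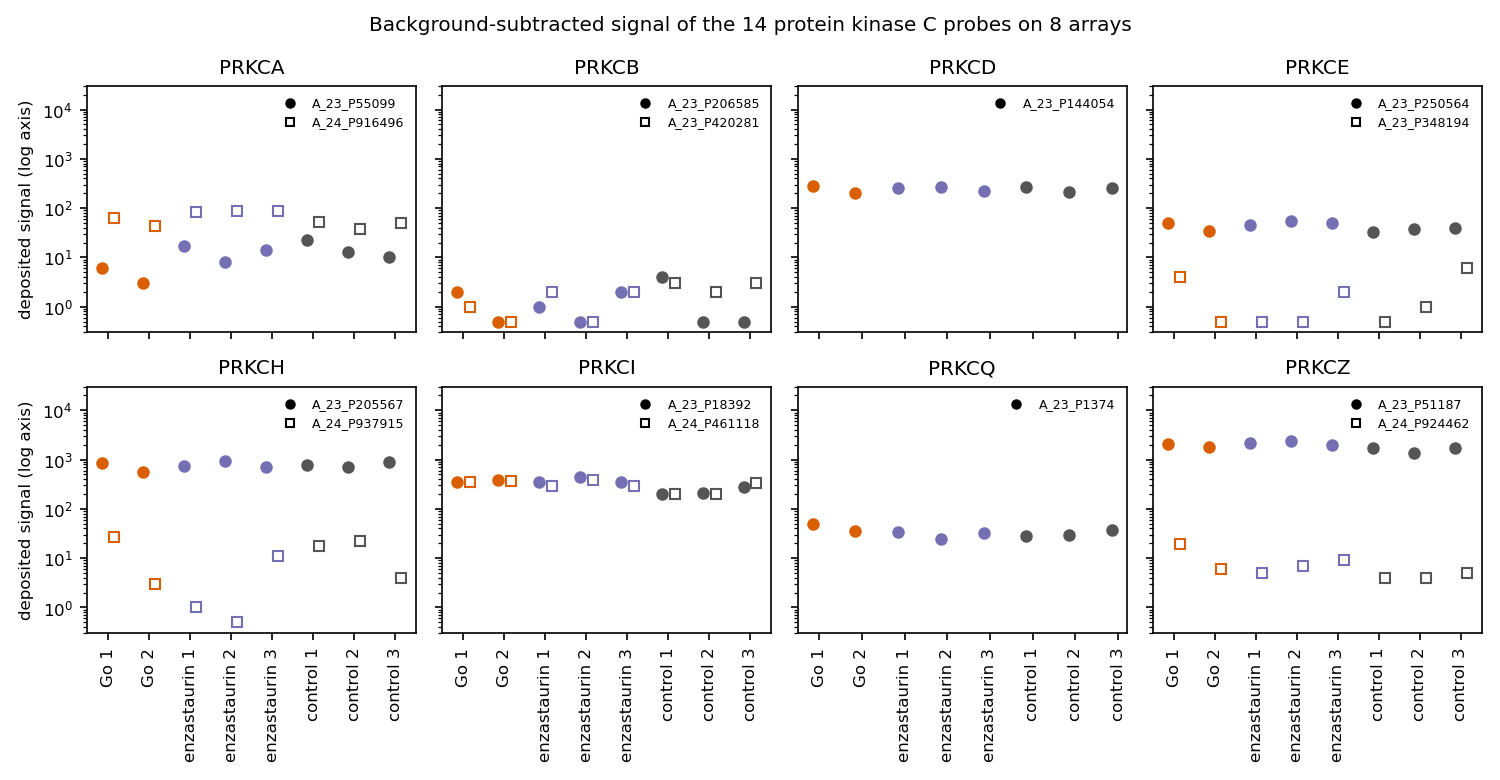
Background-subtracted signal as deposited (vertical axis, intensity units, log axis, floor at 0.5) of each of the 14 probes on the Go, enzastaurin and control arrays, one panel per isoform, with filled circles and open squares for the probes of an isoform. The PRKCB points all lie at 4 or below, and the circles of PRKCZ lie between 1348 and 2334.

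**Figure D2:**
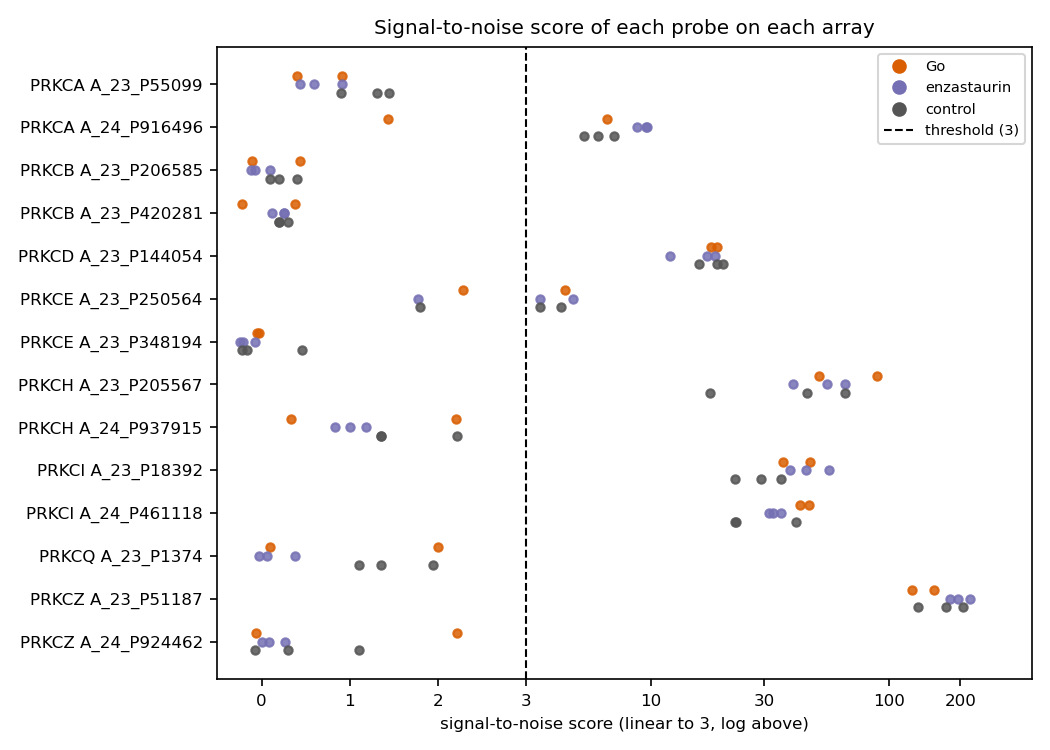
Signal-to-noise score of every probe on each of the 8 arrays, with the limit of 3 marked. The probes of PRKCB stay between -0.22 and 0.44, whereas the brighter PRKCZ probe lies between 125.81 and 220.44.

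Among the conventional isoforms, PRKCA was at the edge of detection and PRKCB was not detectable at this signal. PRKCA, on chromosome 17, is a broadly expressed isoform. Its brighter probe, A_24_P916496, had deposited signals of 62 and 44 on the Go arrays, 82, 89 and 86 on the enzastaurin arrays, and 52, 37 and 49 on the control arrays. The enzastaurin arrays were the highest, with no overlap with either other group. Its signal-to-noise score was 1.43 on Go 1, the one array below the limit, and between 5.25 and 9.67 on the others. The second PRKCA probe, A_23_P55099, is printed in 10 spots per array, and 0 of its 80 spots exceeded a score of 3; its array scores were 0.40 to 1.44. The values of PRKCA given here thus rest on a single spot per array, and the more heavily replicated probe of the gene did not register it.

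After background correction and quantile normalisation, which puts all arrays on a common log2 scale, PRKCA averaged 6.76 ± 0.04 in Go cells (SD, n = 2), 7.07 ± 0.07 in enzastaurin cells and 6.85 ± 0.08 in control cells (SD, n = 3 each). It rose with enzastaurin by 0.21 on the log2 scale (SE 0.074, 95% interval 0.04 to 0.38), with an adjusted p of 0.0417 in limma's test over 24772 probes. The call was made in 8 of 18 alternative settings, with adjusted p between 0.0148 and 0.957. Leaving out Go 1, leaving out Go 2 and using only the groups compared were the same fit here, so not all settings are separate checks. The difference was -0.01 when arrays were scaled to their 75th percentile. The call was also lost with slide as a block (0.16, adjusted p 0.497), with slot as a block (0.23, adjusted p 0.0842) and without control 2, control 3 or any one of the enzastaurin arrays. Omitting background subtraction (0.27, adjusted p 0.214 in limma) and taking replicate number as a block (0.21, adjusted p 0.0754) lost it too. In Go against control cells the difference was -0.10 (interval -0.29 to 0.09, adjusted p 0.373). In Go against enzastaurin cells it was -0.31 (interval -0.50 to -0.12), with an adjusted p of 0.0782, and the groups did not overlap. On the second slide alone, where Go 2 stands against the 3 enzastaurin arrays, that difference was -0.28 with an adjusted p of 0.0448, in a fit where Go has 1 array, whose spread is assumed to be that of the enzastaurin arrays. Without background subtraction it was 0.00. The differences of the 10-spot probe were -0.05 for enzastaurin and -0.12 for Go against control, both from a probe that was not above background.

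PRKCB, on chromosome 16, encodes the isoform against which enzastaurin was developed and is best known from B lymphocytes. Its probes A_23_P206585 and A_23_P420281 had deposited signals between 0.5, the floor of the table, and 4 on all 8 arrays. Neither probe exceeded the 99th percentile of the negative controls on any array, and their scores ran from -0.22 to 0.44. No difference between groups is given for PRKCB, because both probes were below background everywhere; the arrays bound its signal and do not show that the transcript was absent.

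PRKCD, on chromosome 3, is a calcium-independent isoform known in keratinocytes for promoting differentiation and apoptosis. Its single probe, A_23_P144054, was printed in 10 spots per array, and 80 of 80 spots passed the limit. The deposited signals were 280 and 198 on the Go arrays, 257, 272 and 221 on the enzastaurin arrays, and 273, 210 and 261 on the control arrays. As deposited, before the quantile normalisation applied here, the 3 groups overlapped. The deposited means were 239 on the Go arrays, 250 on the enzastaurin arrays and 248 on the control arrays. As deposited, enzastaurin was thus not below control. On the normalised log2 scale the probe read 8.15 and 8.10 on the Go arrays, 7.99, 7.88 and 7.92 on the enzastaurin arrays, and 8.46, 8.38 and 8.18 on the control arrays. Here the groups did not overlap, with enzastaurin lowest and control highest. The spots of the probe on one array differed with a median SD of 0.197 on the log2 scale, which leaves a standard error of 0.049 to 0.09 for an array's mean. In bulk cultures, fewer cells that express a gene and less RNA of it per cell cannot be told apart.

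PRKCD fell with enzastaurin by 0.41 on the log2 scale (SE 0.087, 95% interval -0.61 to -0.21), 1.33-fold lower than in control cells, with an adjusted p of 0.00608 in limma's test. Among its alternative settings the same fit recurs, as it did for PRKCA. The call was made in 17 of 19 of them, and the adjusted p ran from 0.00149 to 0.233. It was lost when arrays were scaled to their median (-0.19, adjusted p 0.0943) and when slide was a block (-0.36, adjusted p 0.233). On the first slide the probe read 8.46, 8.38, 8.18 and 8.15 in slots 1 to 4, and with slot as a block the difference was -0.39 (adjusted p 0.0327). In Go against control cells the difference was -0.21 (interval -0.44 to 0.01, adjusted p 0.123), and the adjusted p was 0.0259 without control 3. In Go against enzastaurin cells it was 0.19 (interval -0.03 to 0.42, adjusted p 0.278).

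PRKCE, on chromosome 2, is a calcium-independent isoform known for promoting growth and migration. Its probe A_23_P250564 had deposited signals of 49 and 34 on the Go arrays, 45, 56 and 51 on the enzastaurin arrays, and 32, 37 and 40 on the control arrays. It was above background on 1 of 2 Go arrays, 2 of 3 enzastaurin arrays and 2 of 3 control arrays. The other probe, A_23_P348194, was above background on none, with signals of 0.5 to 6. None of the PRKCE differences passed the test: 0.09 for enzastaurin against control (interval -0.10 to 0.27, adjusted p 0.383), 0.01 for Go against control (adjusted p 0.919) and -0.07 for Go against enzastaurin (adjusted p 0.659). The normalised values of the 3 groups overlapped.

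PRKCH, on chromosome 14, is the calcium-independent isoform that epithelia are known for, enriched in the differentiating layers of the epidermis. Its probe A_23_P205567 had deposited signals of 833 and 569 on the Go arrays, 726, 957 and 711 on the enzastaurin arrays, and 760, 691 and 895 on the control arrays. Its scores ran from 17.84 to 89.0, far above the limit on every array. On the normalised scale it read 9.61 and 9.38 on the Go arrays, 9.43, 9.55 and 9.48 on the enzastaurin arrays, and 9.93, 9.90 and 9.89 on the control arrays. The control arrays lay close together and above all 5 arrays of treated cells, whereas the deposited signals overlapped. The deposited means were 701 on the Go arrays, 798 on the enzastaurin arrays and 782 on the control arrays. As deposited, the enzastaurin mean was thus not below the control mean. The second probe, A_24_P937915, was above background on no array, with signals of 0.5 to 27.

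PRKCH fell with both compounds. The difference was -0.41 for Go against control (SE 0.09, 95% interval -0.62 to -0.20), 1.33-fold lower, with an adjusted p of 0.0187 in limma's test. It was -0.42 for enzastaurin against control (SE 0.08, interval -0.61 to -0.23), 1.34-fold lower, with an adjusted p of 0.00403. Both differences were taken against the same 3 control arrays and are therefore not independent of each other. The Go call was made in 13 of 20 alternative settings and the enzastaurin call in 17 of 19, again with the same fit recurring among the settings. With slide as a block the differences were -0.29 for Go (adjusted p 0.0917) and -0.18 for enzastaurin (adjusted p 0.364), and with arrays scaled to their median they were -0.26 (adjusted p 0.192) and -0.13 (adjusted p 0.402). On the first slide alone, Go 1 differed from the 3 controls by -0.29 (adjusted p 0.32). With slot as a block the differences were -0.44 for Go (adjusted p 0.0883) and -0.46 for enzastaurin (adjusted p 0.0261). The Go call was also lost without control 2 and with only the arrays of the groups compared. Leaving out Go 2 is the same fit as slide as a block, since both set Go 1 alone against the controls. Go and enzastaurin cells differed by 0.01 (interval -0.20 to 0.22, adjusted p 0.969).

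PRKCQ, on chromosome 10, is the isoform known from signalling at the T cell receptor. Its probe, A_23_P1374, had deposited signals of 50 and 35 on the Go arrays, 34, 24 and 32 on the enzastaurin arrays, and 28, 29 and 38 on the control arrays. These signals exceeded the 99th percentile of the negative controls on 7 of 8 arrays, yet the signal-to-noise score was never above 2.0. By the score PRKCQ was below background on all arrays, and no difference is given.

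PRKCI, on chromosome 3, is an atypical isoform that works with PARD6 and PARD3 proteins at cell junctions and is known as an oncogene in squamous carcinomas, where its locus is often gained. Both of its probes were above background on all 8 arrays. Probe A_23_P18392 had deposited signals of 357 and 382 on the Go arrays, 355, 451 and 352 on the enzastaurin arrays, and 203, 207 and 280 on the control arrays. Probe A_24_P461118 had 353 and 366 on the Go arrays, 297, 392 and 288 on the enzastaurin arrays, and 197, 197 and 333 on the control arrays. The control arrays were the lowest by the first probe, without overlap, whereas by the second probe control 3 lay above 2 of the enzastaurin arrays.

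By probe A_23_P18392, PRKCI rose with Go by 0.36 on the log2 scale (SE 0.104, 95% interval 0.12 to 0.60), 1.28-fold, with an adjusted p of 0.0363 in limma's test. The call was made in 9 of 20 alternative settings, with adjusted p between 0.00921 and 0.404. With slide as a block the difference was 0.22 (adjusted p 0.194), and on the first slide alone it was 0.22 (adjusted p 0.404). The call was also lost with slot as a block (0.42, adjusted p 0.113) and without control 1, control 2 or any one of the enzastaurin arrays. Scaling arrays to their 75th percentile (0.35, adjusted p 0.051 in limma) and using only the groups compared (0.36, adjusted p 0.119) lost it too. Leaving out Go 2 is the same fit as slide as a block, with Go 1 alone against the controls. Probe A_24_P461118 gave 0.24 for the same comparison (interval -0.06 to 0.54, adjusted p 0.175), and 0.42 without Go 1 (adjusted p 0.0433). For enzastaurin against control the probes gave 0.22 (interval 0.00 to 0.43, adjusted p 0.0805) and -0.06 (interval -0.33 to 0.20, adjusted p 0.667), so they disagreed in sign. With arrays scaled to their median they were 0.45 (adjusted p 0.00867) and 0.17, both above 0, and with slide as a block they were -0.07 and -0.41 (adjusted p 0.764 and 0.21), both below 0. For Go against enzastaurin they gave 0.14 (adjusted p 0.446) and 0.31 (adjusted p 0.216). On the second slide alone these differences were 0.29 (adjusted p 0.0405) and 0.48 (adjusted p 0.0108), a fit in which Go 2 is a lone array assumed to vary like the others.

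PRKCZ, on chromosome 1, is the other atypical isoform and a binding partner of the scaffold SQSTM1. Its probe A_23_P51187 had deposited signals of 2116 and 1782 on the Go arrays, 2140, 2334 and 2019 on the enzastaurin arrays, and 1732, 1348 and 1678 on the control arrays. As deposited, the control arrays lay below all Go and enzastaurin arrays. On the normalised scale the probe averaged 10.88 ± 0.04 in Go cells (SD, n = 2), 10.85 ± 0.05 in enzastaurin cells and 10.93 ± 0.18 in control cells (SD, n = 3 each), and there the groups overlapped. None of the differences passed the test: -0.08 for enzastaurin against control (interval -0.30 to 0.14, adjusted p 0.507), -0.05 for Go against control (interval -0.30 to 0.20, adjusted p 0.718) and 0.03 for Go against enzastaurin (interval -0.22 to 0.28, adjusted p 0.908). With arrays scaled to their median, the difference for enzastaurin against control was 0.27 (adjusted p 0.0541 in limma). The second PRKCZ probe, A_24_P924462, was above background on no array, with signals of 4 to 19.

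**Figure D3:**
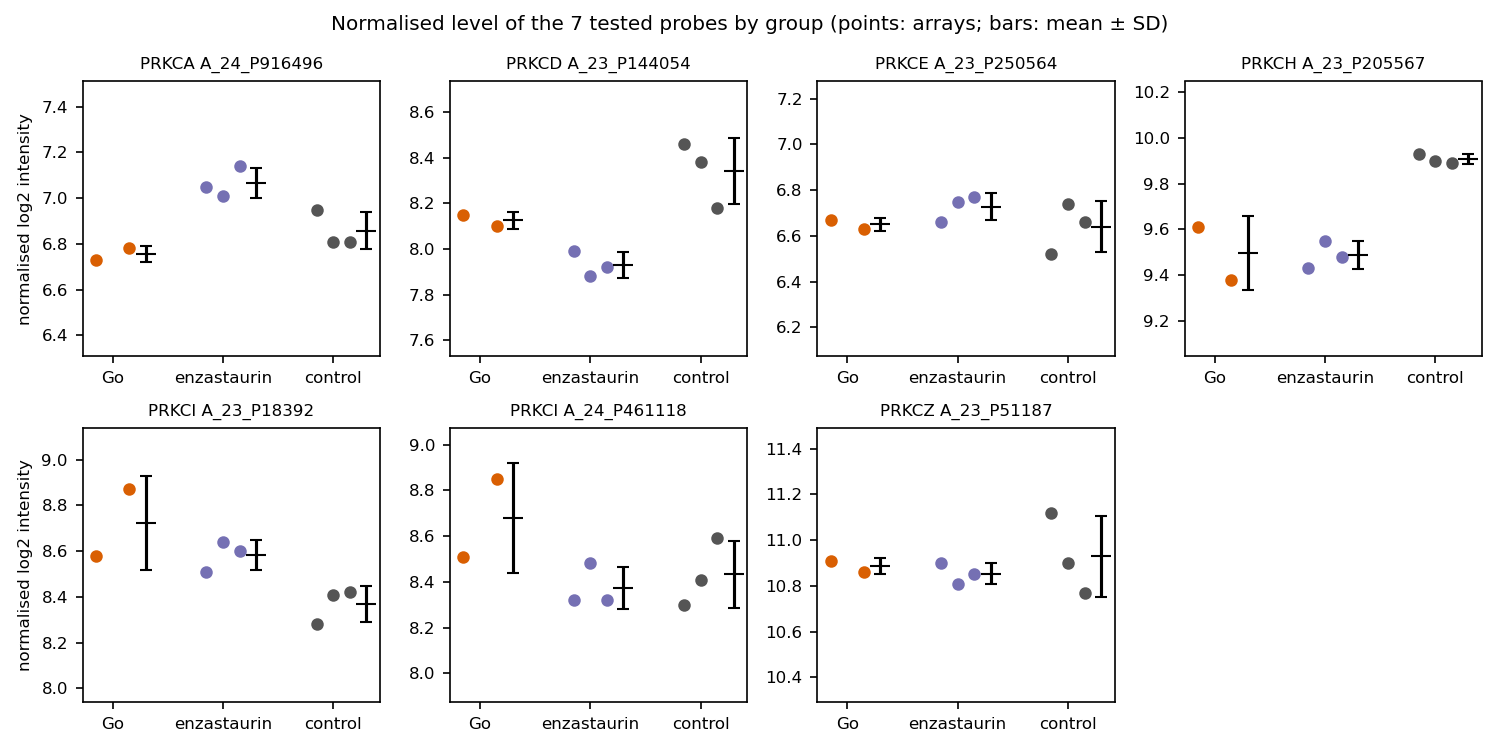
Normalised log2 intensity (vertical axis) of the 7 tested probes on the Go, enzastaurin and control arrays, with a point per array and the group mean and SD. For PRKCH the control arrays lie at 9.89 to 9.93, above all arrays of Go and enzastaurin cells.

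Over the family, 7 probes of 6 isoforms passed the filter for testing, which asked for a score above 3 on at least 2 arrays; the other 7 probes were above background on none. Of the 7 probes, 0 were called for Go against enzastaurin (2 at an unadjusted p below 0.05), in a comparison where 4.47% of all 24772 probes were called (2.37% higher and 2.1% lower). For Go against control 2 of 7 were called, PRKCI higher and PRKCH lower, where 29.7% of all probes were called (13.2% higher and 16.4% lower). For enzastaurin against control 3 of 7 were called, PRKCA higher and PRKCD and PRKCH lower, where 52.6% of all probes were called (22.0% higher and 30.6% lower). The members' counts lie near these shares, and the groups did not overlap for 46.1%, 56.6% and 67.9% of all probes in the same 3 comparisons. Differences larger than that of PRKCH were measured for 26.5% of all probes with Go and 34.1% with enzastaurin, and larger than that of PRKCD with enzastaurin for 35.4%. With slide as a block none of the 21 tests of the family was called in limma, with 4 of 21 at an unadjusted p below 0.05, while 5.32%, 5.6% and 3.5% of all probes were called for Go against enzastaurin, Go against control and enzastaurin against control. With slot as a block, a fit with 2 residual degrees of freedom, 2 of 21 were called, PRKCD and PRKCH for enzastaurin against control, where 38.0% of all probes were called. For Go against enzastaurin and Go against control that fit called 0.0% of all probes (limma; 3444 and 9476 at an unadjusted p below 0.05). Within a slide, 3 of 7 were called for Go against enzastaurin, where 25.2% of all probes were called, and 0 of 7 for Go against control (1 at an unadjusted p below 0.05 in limma), where 0.295% were called.

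**Figure D4:**
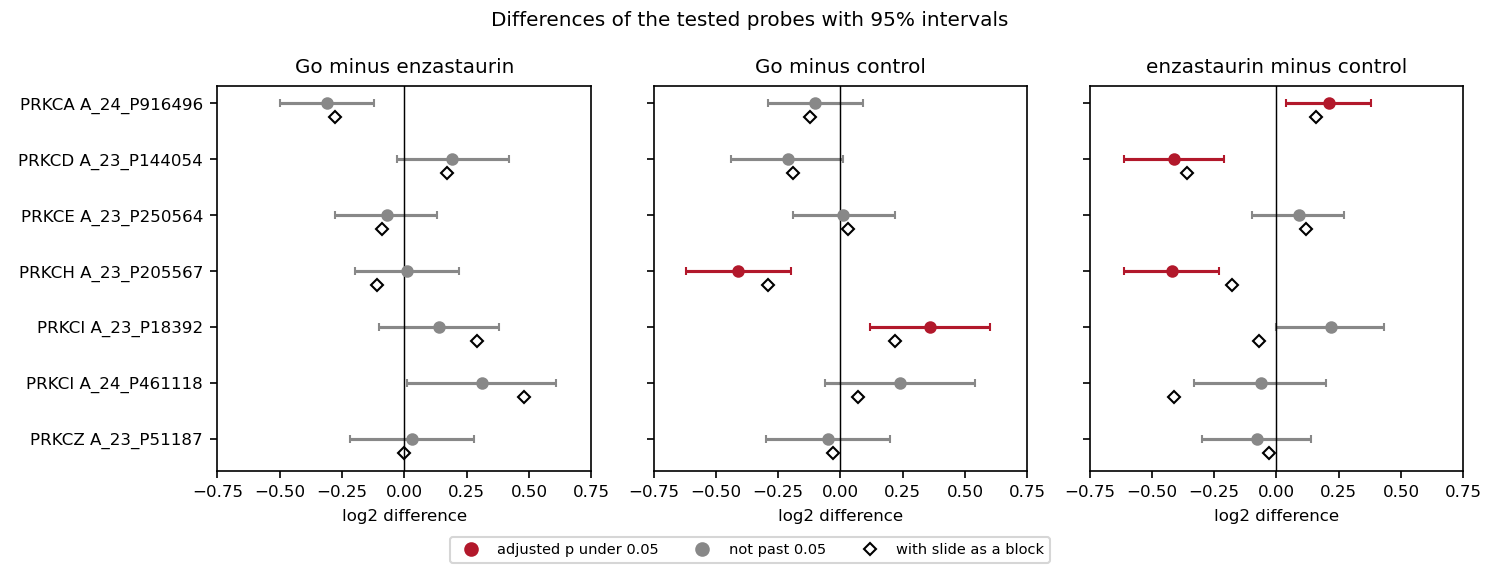
Log2 difference (points) with its 95% interval (bars) of each of the 7 tested probes, for Go minus enzastaurin, Go minus control and enzastaurin minus control, from the fit with the 3 groups. Of 21 intervals, those of the 5 calls (PRKCH in both comparisons with control, PRKCI with Go, PRKCD and PRKCA with enzastaurin) exclude 0, as do 3 that did not pass after adjustment (PRKCA and PRKCI A_24_P461118 for Go minus enzastaurin, PRKCI A_23_P18392 for enzastaurin minus control).

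The promoters of PRKCH, PRKCD and PRKCI are shown because these isoforms were above background on all arrays and were called against control, the first pair lower and PRKCI higher. The windows run from 250 bases before to 50 after an annotated start (RefSeq, GRCh38.p14, plus strand), at chr14:61321329-61321628 for PRKCH, chr3:53160959-53161258 for PRKCD (the first of its 3 annotated windows) and chr3:170222174-170222473 for PRKCI. Capitals mark GC boxes, the letters GGGCGG on either strand.
PRKCH: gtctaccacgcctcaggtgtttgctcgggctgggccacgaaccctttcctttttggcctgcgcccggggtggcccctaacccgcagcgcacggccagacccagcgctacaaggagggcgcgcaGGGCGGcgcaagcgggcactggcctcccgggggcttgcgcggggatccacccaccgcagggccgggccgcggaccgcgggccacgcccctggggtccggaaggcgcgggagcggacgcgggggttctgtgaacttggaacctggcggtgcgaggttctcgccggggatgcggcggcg
PRKCD: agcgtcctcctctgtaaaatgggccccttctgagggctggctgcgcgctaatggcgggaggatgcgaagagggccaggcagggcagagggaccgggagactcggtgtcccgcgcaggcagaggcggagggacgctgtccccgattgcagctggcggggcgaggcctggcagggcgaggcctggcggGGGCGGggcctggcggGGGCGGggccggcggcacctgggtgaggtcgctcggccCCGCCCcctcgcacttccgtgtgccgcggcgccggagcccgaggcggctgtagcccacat
PRKCI: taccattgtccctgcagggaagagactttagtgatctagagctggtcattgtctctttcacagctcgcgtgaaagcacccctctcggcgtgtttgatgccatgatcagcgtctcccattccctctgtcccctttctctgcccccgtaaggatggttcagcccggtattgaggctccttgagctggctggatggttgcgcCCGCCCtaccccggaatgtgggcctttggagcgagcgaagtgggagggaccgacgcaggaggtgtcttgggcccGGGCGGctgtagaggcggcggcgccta
The PRKCH window holds 1 GC box, the PRKCD window 3 and the PRKCI window 2. Of 35116 RefSeq promoter windows of the same length, 45.0% hold at least 1 GC box. The AP-1 motif TGACTCA, searched on both strands and known as the phorbol ester response element downstream of protein kinase C, was in none of these 3 windows and in 4.95% of all windows. The cyclic AMP response element TGACGTCA was in none of the 3 windows and in 1.85% of all windows. The E-box with the letters CACGTG was in none of the 3 and in 7.26% of all, and the TATA box with the letters TATAAA on either strand was in none of the 3 and in 11.5% of all. A match or its absence describes only these letters in these windows.

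The genes whose profiles over the 8 arrays lay nearest to each well-detected isoform were sought by the root mean square difference of log2 values centred on each gene's mean. For PRKCD the nearest were ADM (0.029) and LOX (0.03), against a spread of PRKCD itself about its mean of 0.193. For PRKCH, with a spread of 0.213, they were ZC3H11A (0.04) and PPP6C (0.046). For PRKCI, with a spread of 0.169, they were CUL5 (0.034) and DDX6 (0.037), and for PRKCZ, with a spread of 0.1, NLRX1 (0.023) and LAMA5 (0.032). These are descriptions over 8 arrays that share slides and treatments.

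Genes that act around the isoforms were read from the same fit. The lists held 66 genes, of which 64 were on the array and 47 had a tested probe, the brightest of each gene being used. For Go against enzastaurin 2 were higher and 0 lower (4.26% called); for Go against control 6 were higher and 8 lower (29.8%); and for enzastaurin against control 8 were higher and 15 lower (48.9%). These shares lie close to the shares over all probes given above. With slide as a block, 2 genes were called for Go against control, DGKH and RASGRP4, and none in the other comparisons (limma, adjusted p). In a check of scaling added after the values were seen, 13 of the 14 genes called for Go against control and 18 of the 23 called for enzastaurin against control were still called, with the same sign, when arrays were scaled to their 75th percentile, and 9 of 14 and 14 of 23 when scaled to their median. Neither of the 2 genes called for Go against enzastaurin passed under either scaling.

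Among relatives of the isoforms, 0 of 6 tested genes were higher and 2 lower with Go, and 1 was higher and 3 lower with enzastaurin. PKN2, a protein kinase N, fell by 0.49 with Go and fell by 0.32 with enzastaurin by its brightest probe. That probe read 15.21 to 15.85 over the arrays (normalised log2), and saturation is given above only for the 14 probes of the isoforms. The 3 tested PKN2 probes ranged from -0.49 to 0.01 with Go and from -0.60 to 0.08 with enzastaurin. PRKD3, a protein kinase D that isoforms of protein kinase C can activate, was 0.48 higher with enzastaurin (SE 0.1, adjusted p 0.00562), with its 3 probes between -0.01 and 0.48.

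Of the enzymes that make and remove diacylglycerol, 8 phospholipase C genes and 6 diacylglycerol kinase genes were tested. With enzastaurin, 1 phospholipase C gene was higher and 2 were lower, and with Go 0 were higher and 1 lower. PLCD1, the called gene with the largest difference of the list, read 6.44 and 6.45 on the Go arrays, 6.50, 6.42 and 6.47 on the enzastaurin arrays, and 8.28, 7.73 and 6.86 on the control arrays (normalised log2). It fell by 1.18 with Go (SE 0.335, adjusted p 0.0351) and fell by 1.15 with enzastaurin (SE 0.299, adjusted p 0.0137). Its controls spread with an SD of 0.72. Its scores were 4.12 and 1.77 on the Go arrays and 3.33, 3.75 and 3.44 on the enzastaurin arrays, close to the limit of 3. The size of the PLCD1 differences is therefore not fixed by the arrays. In slots 1 to 4 of the first slide (control 1, 2 and 3 and Go 1) it read 8.28, 7.73, 6.86 and 6.44. PLCE1, a phospholipase C that answers to Ras, was 0.36 higher in Go than in enzastaurin cells (SE 0.081, adjusted p 0.0498, and 0.0651 with arrays scaled to their 75th percentile). Of the diacylglycerol kinases, which convert the lipid to phosphatidic acid, 3 were higher and 1 lower with enzastaurin, and 2 were higher and 1 lower with Go. DGKH, by probe A_24_P220575, read 10.45 and 11.38 on the Go arrays, 11.45, 11.52 and 11.37 on the enzastaurin arrays, and 5.96, 6.29 and 8.12 on the control arrays (normalised log2). It was higher by 4.12 with Go (adjusted p 0.00771) and by 4.66 with enzastaurin (adjusted p 0.000674), and by 3.66 with Go with slide as a block (adjusted p 0.0365). Its controls spread with an SD of 1.16, and only control 3 among them was above background. The size of these differences is therefore not fixed by the arrays. In slots 1 to 4 of the first slide the probe read 5.96, 6.29, 8.12 and 10.45. The second DGKH probe was above background on no array.

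RASGRP4, a diacylglycerol receptor that activates Ras, was the one called of 5 tested genes of its list in each comparison with control. It fell by 1.05 with Go (SE 0.151, adjusted p 0.00817) and fell by 1.29 with enzastaurin (SE 0.135, adjusted p 0.0006), and with slide as a block it fell by 0.89 with Go (adjusted p 0.0365). This RASGRP4 probe scored 5.5 on Go 1 and 2.5 on Go 2, the latter below the limit of 3. The second RASGRP4 probe was above background on no array. Of 15 tested priming kinases, scaffolds and partners, 3 were higher and 2 lower with Go, and 3 were higher and 3 lower with enzastaurin. PDPK1, which phosphorylates the activation loop of the isoforms, was higher by 0.47 with Go and by 0.48 with enzastaurin by its brightest probe. Its 3 tested probes ranged from -1.25 to 0.47 with Go and from -0.16 to 0.48 with enzastaurin. The probe with -1.25 read 6.35 on Go 1 and 8.70 on Go 2, and 8.90, 8.70 and 8.71 on the control arrays. Its signal-to-noise scores were 1.92 and -0.14 on the Go arrays, below the limit of 3. On control 1, 2 and 3 they were 27.92, 32.62 and 1.88, so its difference is not a reliable reading. SQSTM1, the scaffold of the atypical isoforms, was higher by 0.34 with Go and by 0.59 with enzastaurin. PARD6G, a polarity partner of PRKCI and PRKCZ, was higher by 3.0 with Go and by 3.12 with enzastaurin by probe A_23_P141699. The SE was 0.802 with Go and 0.717 with enzastaurin (adjusted p 0.03 and 0.00845 in limma's test). Its controls spread with an SD of 1.67, and with slide as a block the differences were 2.55 and 2.22, neither called. By that probe control 1, 2 and 3 and Go 1, in slots 1 to 4 of the first slide, read 7.90, 9.85, 11.21 and 12.2. The other PARD6G probe differed by -0.22 with Go and by -0.13 with enzastaurin. It scored 2.96 and 2.98 on the Go arrays and 2.49 on control 2, below the limit of 3.

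Of 7 tested substrates, 1 was higher and 1 lower with Go, and 0 were higher and 5 lower with enzastaurin. Over all probes, 13.2% were higher and 16.4% lower with Go, and 22.0% higher and 30.6% lower with enzastaurin. MARCKS, the membrane protein that the isoforms phosphorylate, fell by 0.40 with enzastaurin (SE 0.136, adjusted p 0.0373), with a difference of 0.18 when slide was a block (adjusted p 0.37). ADD1, an adducin of the membrane skeleton, fell by 0.40 with enzastaurin by its brightest probe (SE 0.083, adjusted p 0.0058). Its 2 tested probes ranged from -0.40 to -0.04, and with slide as a block the brightest gave -0.40 (adjusted p 0.182). None of the 5 substrates lower with enzastaurin passed when arrays were scaled to their median; MARCKS then differed by -0.07 and ADD1 by -0.06. PEBP1, the Raf inhibitor protein that the isoforms release from Raf, was 0.34 higher in Go than in control cells (SE 0.069, adjusted p 0.0158) and 0.31 higher in Go than in enzastaurin cells (adjusted p 0.0476, and 0.405 with arrays scaled to their median). Its 3 groups were tight, at 13.52 ± 0.02 in Go cells (SD, n = 2), 13.21 ± 0.02 in enzastaurin cells and 13.18 ± 0.04 in control cells (SD, n = 3 each).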

How the data were processed

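RNA of CAL-27 cells was labelled and hybridised to 8 single-colour Agilent-design arrays, per the labels' protocols. The scanner tables hold foreground and background intensity per spot, neither corrected nor normalised, per the file headers. For every spot they give, per the file headers, a score of signal to noise, its saturated pixels in percent, and its position. The wavelength in the column heads is not that of the labels' dye. The deposited value table was found, on comparison with the scanner tables, to be linear intensity after subtraction of background, with 0.5 as the lowest value; its normalisation is not given in the sources used here.

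The annotation ran end for end against the spots. As deposited, its rank correlation with the value table across probes was 0.0033 to 0.0092, and rotated it was 0.9904 to 0.9937, so the rotated form was used. Names came from RefSeq (GRCh38.p14): 23865 probes by accession, 2004 by symbol and 961 by older symbol, with 14170 unnamed. Slides were inferred from mean horizontal spot positions (10930.1 to 10951.0 for slide 1, 10897.1 to 10904.5 for slide 2).

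Intensities were corrected with normexp (offset 50), quantile normalised and averaged over the spots of a probe. A probe with a score above 3 on at least 2 arrays was tested (24772 probes) with limma 3.58.1 in R 4.3.3, fitting all groups together (residual df 5, prior df 2.97), two-sided, with Benjamini-Hochberg adjustment over all tested probes and a threshold of 0.05. Groups follow the labels. The fit was tested on simulated data. The number of arrays limits the precision.

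The members, gene lists, tests and alternatives were chosen with earlier results of these data known. Named genes are all member probes, up to 4 called genes of largest difference per list and comparison, and the 2 nearest profiles of each isoform above background on all arrays; the text gives some of them, and 1 item of the lists is not reported here. Alternatives covered scaling, background subtraction, the value table (given the offset of 50 and quantile normalised), the filter, probes per gene, slide, slot on the slide (added after the values were seen), replicate number, the groups in the fit and each replicate left out. The value table is thus no check of the quantile normalisation.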

Additional observations from a re-analysis of the deposited data

How the results depend on the processing

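Of the results recomputed under other settings, 334 stayed on the same side of the threshold with the same direction or size, 31 lost a call and 9 gained one with the direction kept, and 30 changed sign, of which 1 (PRKCA for enzastaurin minus control at the 75th percentile) also lost its call; the causes were not tested. The count of isoforms above background on all arrays stayed within 4 to 6. Calls among the 21 tests of the isoforms numbered 5, 3 with arrays scaled to the 75th percentile, 3 with arrays scaled to the median, 0 with slide as a block, 2 with slot as a block (a setting added after the values were seen), and 2 to 7 with an array left out. Probes called over the whole array for Go minus enzastaurin numbered 1108, 6237 on the second slide alone, 0 with slot as a block in limma (3444 at an unadjusted p below 0.05) and 154 to 2595 with an array left out (154 without enzastaurin 2, 177 without enzastaurin 1, 210 without enzastaurin 3, 371 without control 2 and 2595 without Go 2). For Go minus control they numbered 7349, 4430 with arrays scaled to the median, 1386 with slide as a block, 73 on the first slide alone, 0 with slot as a block (9476 at an unadjusted p below 0.05), 0 in limma with only the arrays of those groups (8222 at an unadjusted p below 0.05) and 929 to 10196 with an array left out (929 without control 2, 1386 without Go 2, 3129 without control 1 and 3977 to 4388 without an enzastaurin array). For enzastaurin minus control they numbered 13033, 867 with slide as a block and 9489 to 14314 with an array left out. No slide holds both enzastaurin and control arrays, so a value within a slide could not be had.

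Scaling moved directions. The median difference of all tested probes for enzastaurin minus control was -0.072 after quantile normalisation, -0.18 with the 75th percentile and 0.077 with the median. Among called probes, the share higher was 53.0% for Go minus enzastaurin, 44.6% for Go minus control and 41.8% for enzastaurin minus control. With the 75th percentile these shares were 61.6%, 43.0% and 30.8%, and with the median 28.5%, 72.2% and 64.8%. Of log2 differences that changed sign with the 75th percentile, PRKCE was 0.07 for Go minus enzastaurin, -0.13 for Go minus control and -0.20 for enzastaurin minus control, PRKCZ was -0.01, 0.01 and 0.02 in the same order, and PRKCA was -0.01 for enzastaurin minus control. With the median, PRKCZ was -0.14, 0.13 and 0.27 in that order, PRKCH was -0.13 for Go minus enzastaurin, PRKCE was -0.01 for Go minus control, and PRKCI (A_24_P461118) was 0.17 for enzastaurin minus control. Without background subtraction PRKCA was 0.00 for Go minus enzastaurin and 0.27 for Go minus control, and PRKCE was -0.02 for Go minus control. From the deposited value table, given the offset of 50 and quantile normalised like the main data, PRKCA was 0.01 for Go minus control. With slide as a block PRKCH was -0.11 for Go minus enzastaurin, as it was on the second slide alone, and PRKCI (A_23_P18392) was -0.07 for enzastaurin minus control. With slot as a block PRKCZ was -0.08 for Go minus enzastaurin. With an array left out, PRKCH ran from -0.11 to 0.13 and PRKCI (A_23_P18392) from 0.00 to 0.29 for Go minus enzastaurin, PRKCE from -0.05 to 0.06 and PRKCZ from -0.13 to 0.04 for Go minus control, and PRKCI (A_24_P461118) from -0.13 to 0.02 and PRKCZ from -0.16 to 0.02 for enzastaurin minus control.

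Same-numbered arrays of different groups did not deviate together (correlations of deviations from the group means between -0.148 and 0.161), so the numbers were not taken as pairs. With the replicate number as a block, 258 probes were called for Go minus enzastaurin, 7843 for Go minus control and 12452 for enzastaurin minus control. PRKCA for enzastaurin minus control then had an adjusted p of 0.0754, and PRKCZ for Go minus enzastaurin was -0.01. Signal over background limits what can be said of PRKCB, PRKCQ, PRKCE and PRKCA, whose probes lay below background on all or some arrays.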
